A study of Mus musculus with 4 samples.

Results

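The 10 genes Mdm2, Ccng1, Sesn2, Phlda3, Eda2r, Zmat3, Aen, Btg2, Plk2 and Tnfrsf10b are targets of the transcription factor p53, and were followed in a melanoma after its driving oncogene was switched off. They were chosen as all probe sets that the platform annotation gives one of these symbols: 21 probe sets for 10 of the 18193 genes measured by a probe set with a single symbol. Of the 10 genes, 9 had a mean intensity above the level filter of 24.9 (the 40th percentile of probe sets), and Eda2r did not.

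The tumours were grown from cells of the mouse melanoma line iNRAS-475, whose NRAS is kept on by doxycycline, injected into the dermis of nude mice, which lack a thymus. All hosts drank doxycycline at 2 mg/ml while tumours grew to between 200 and 500 mm3 over 6 weeks. The control tumour was taken on doxycycline, and the others 24, 48 or 72 h after the drug had been withdrawn. Each condition was 1 Affymetrix array of 1 piece of tumour of about 50 mg, so animal, tumour piece and condition cannot be told apart, no difference has a replicate error, and no p-value is given. All arrays share a single cell line, and the labels give neither the host's age nor the alleles of the line. As background from the published description of the inducible NRAS model rather than from the labels, such lines carry a mutant NRAS under a tetracycline-responsive promoter, a transactivator driven by the tyrosinase promoter, and a deletion of the Ink4a/Arf locus, which the controls share.

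p53 is held at a low level by MDM2, a ubiquitin ligase whose own gene p53 activates, so that the pair form a feedback loop. When p53 is stabilised, its targets slow the cell cycle, restrain growth signalling, protect against oxidative stress or promote cell death. The ARF product of Cdkn2a inhibits MDM2, and loss of the Ink4a/Arf locus is frequent in melanoma, whereas p53 itself is often left intact. Several of these genes also respond to other signals, among them growth factors and nutrient stress.

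The deposited table gave 1 linear intensity per probe set and array, with array medians between 33.3 and 34.0. Exactly equal values between arrays were frequent: 48.0% of all probe sets and 11 of the 21 studied here had the same value on at least 2 arrays, which narrows the measured spread. The number of arrays, 4, limits the precision. Differences are off minus on and taken between values of log2(intensity + 32), a scale that shrinks the differences of dim probe sets. A gene is called 2-fold different where the size is at least 1. A gene with several probe sets is represented by the one of highest mean intensity, called its brightest. Mouse Nras read 163, 256, 163 and 163 on the control, 24, 48 and 72 h arrays, and these probe sets do not check the transgene, whose sequence the labels do not give. The list of 10 ERK output genes, transcribed when the pathway below NRAS is active, summed to an intensity of 18244, 17185, 5711 and 2482 over the same arrays, with 10 of 10 genes lower than the control at 48 and 72 h, among them Dusp6 at -3.21 and Ccnd1 at -2.89 at 72 h. Of 9 melanocyte markers Sox10 read 3771, 3613, 4681 and 3844, while the pigment cell genes Mlana, Tyr and Tyrp1 were below the level filter. At 72 h Pmel, Mitf and S100b were higher than the control, by 1.14, 0.84 and 0.62, and Dct and Mc1r were lower, at -0.21 and -0.24.

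Promoter sequence is shown for Ccng1 and Aen, which went opposite ways at 72 h, for Mdm2 and for Phlda3. Of these, Mdm2 moved little by its brightest probe set and Phlda3 changed most. Any link between these sequences and the intensities was not tested. Sequences are from RefSeq on build GRCm38.p6, in windows of 250 bases before to 50 after a start site, and 8 of the 10 genes had a window. The windows were searched for the p53 decamer consensus, whose reverse complement is the same pattern, so 1 search covers both strands. An exact decamer was found for 3 of the 8 genes and in 8.36% of all 32851 windows. Shares of genes and of windows are not the same measure, since the 8 genes had 9 windows. A pair of decamers at most 1 base apart, with the C and G of each core kept and at most 3 mismatches over 20 bases, was found for 2 of the 8 genes and in 2.82% of all windows. This pair overlaps the exact decamer of the same promoters. The 250 bases before the Ccng1 and Mdm2 starts and 30 bases around the Aen pair are given 5′ to 3′ on the gene's strand, with the decamer pair (Ccng1 and Aen) or exact decamer (Mdm2) in capitals; the Phlda3 stretch of 250 bases held no match.
Ccng1, chr11:40755287-40755536, minus strand: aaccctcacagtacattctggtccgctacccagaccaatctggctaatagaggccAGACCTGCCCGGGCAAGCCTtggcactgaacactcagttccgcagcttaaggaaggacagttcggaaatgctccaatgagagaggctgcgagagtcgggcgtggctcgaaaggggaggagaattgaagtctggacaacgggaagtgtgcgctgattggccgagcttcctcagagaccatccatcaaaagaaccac
Aen, chr7:78895932-78895961, plus strand: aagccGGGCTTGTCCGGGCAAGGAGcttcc
Mdm2, chr10:117710759-117711008, minus strand: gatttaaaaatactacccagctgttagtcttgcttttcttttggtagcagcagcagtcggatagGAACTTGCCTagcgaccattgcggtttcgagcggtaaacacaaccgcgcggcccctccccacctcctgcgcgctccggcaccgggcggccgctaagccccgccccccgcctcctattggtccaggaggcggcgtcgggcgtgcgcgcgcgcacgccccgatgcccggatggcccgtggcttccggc
Phlda3, chr1:135765835-135766084, plus strand: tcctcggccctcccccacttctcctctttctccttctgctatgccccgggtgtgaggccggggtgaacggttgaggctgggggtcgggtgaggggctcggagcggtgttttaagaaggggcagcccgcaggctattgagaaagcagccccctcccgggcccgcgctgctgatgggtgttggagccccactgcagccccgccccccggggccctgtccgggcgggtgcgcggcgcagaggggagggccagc
The Ccng1 pair starts 195 bases before the start site with 1 mismatch to the consensus, and the Aen pair 121 bases before the later of its 2 start sites with 3 mismatches. The Mdm2 decamer starts 186 bases before the start site. A match is a description of these letters, and its absence says only that they are not in this window.

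The p53 targets did not move as a block after withdrawal. Phlda3 alone was 2-fold different from the control tumour, lower at 48 and 72 h, and Plk2 and Aen were lower by less. By their brightest probe sets, Zmat3 and Ccng1 lay higher at 72 h than on any other array. Mdm2 and Sesn2, as read by their brightest probe sets, stayed within 0.13 of the control. In a tumour piece, fewer cells of a type and less RNA per cell cannot be told apart, for these and all other values.

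Phlda3 encodes a pleckstrin homology domain protein that p53 induces and that restrains the kinase AKT at the membrane. Its only probe set read 1926 on the control array, then 1584, 883 and 725 as time off doxycycline went from 24 to 48 and 72 h. Each array was lower than the one before it in time, and the control was the highest. The differences were -0.28, -1.10 and -1.37, the last a level 0.376 times that of the control. Between the off arrays alone, without the control, Phlda3 was lower by 0.82 from 24 to 48 h, by 0.27 from 48 to 72 h and by 1.09 from 24 to 72 h. The ERK output list was lower on the same arrays, with median differences of -0.24, -1.62 and -2.42 at 24, 48 and 72 h, and its part in the Phlda3 values was not tested.

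The genes whose 3 differences lay nearest to those of Phlda3, by Euclidean distance over the 3 off arrays among the 13522 genes above the level filter, were Btc, Lif and Fdft1. Btc encodes betacellulin, a ligand of the EGF receptor, and read 519.6 on doxycycline and 424, 228 and 181 at 24, 48 and 72 h, at a distance of 0.01. Lif, a cytokine of the interleukin 6 family, read 159.9, 132, 56.0 and 43.9, at a distance of 0.06. Fdft1, the squalene synthase of sterol synthesis, read 199, 169.8, 76.7 and 57.9, at a distance of 0.09. In all, 107 genes lay within 0.5, and with 4 arrays such likeness is common. Other probe sets of these genes departed from the pattern: at 72 h another Btc probe set was at -0.48, another Lif probe set at -0.04 and those of Fdft1 between -1.22 and 0.00.

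**Figure D1:**
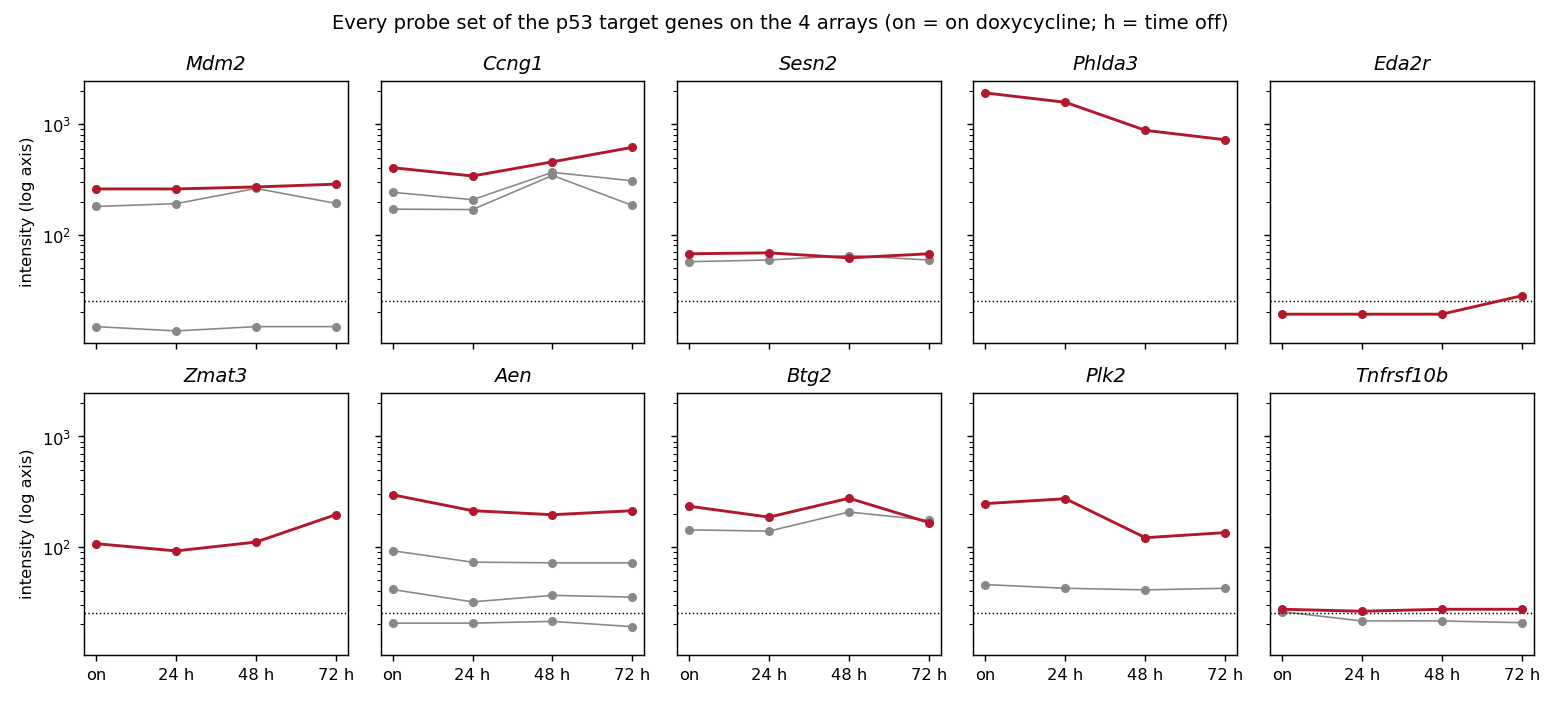
Intensity (log axis) of all 21 probe sets of the 10 genes on the array on doxycycline and at 24, 48 and 72 h off, 1 array each. Red lines are each gene's brightest probe set, grey lines its other probe sets, and the dotted line the level filter of 24.9. Phlda3 goes from 1926 to 725, while the brightest probe set of Mdm2 stays between 260.0 and 287.

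The genes of the p53 feedback loop, Mdm2 and Ccng1, differed little or were higher late. Mdm2 read 260.0 on doxycycline and at 24 h, 271 at 48 h and 287 at 72 h by its brightest probe set, with differences of 0.00, 0.05 and 0.13. A further probe set read 180.4, 191, 263 and 192, so that 48 h stood above the other arrays by this reading, at 0.47. The last Mdm2 probe set, between 13.5 and 14.7, was below the level filter.

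Ccng1 encodes cyclin G1, which binds a subunit of the phosphatase PP2A and takes part in the control of MDM2. Its brightest probe set read 405 in the control, 341 after 24 h, 458 after 48 h and 619.6 after 72 h, with differences of -0.23, 0.16 and 0.58. The other probe sets were highest at 48 h instead, at 368 and 345 against 242 and 171 on doxycycline, which is 0.54 and 0.90 higher; by 72 h these differences were 0.31 and 0.09. All 3 readings were lower than the control at 24 h and higher at 48 and 72 h, but they disagree on which of the later arrays was highest. Without the control array, the brightest was higher by 0.81 from 24 to 72 h.

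Cell cycle and growth regulators differed in both directions. Btg2, a member of the antiproliferative BTG/TOB family and an immediate early gene, read 234, 186, 276 and 166 by its brightest probe set, with differences of -0.29, 0.21 and -0.42. Its other probe set read 143, 139, 207 and 174. Both were highest at 48 h, but at 72 h the second was above the control, at 0.24, so the direction at 72 h depends on the probe set. Plk2, a polo-like kinase that is also induced by growth factors, read 246 in the control, 273 after 24 h, 121 after 48 h and 135 after 72 h. The pair of later arrays lay well below the pair of earlier ones, with differences of 0.13, -0.86 and -0.74. From 24 to 48 h the step was -0.99, just short of 2-fold, and on the linear scale the 48 h level was 0.491 times that of the control. The other Plk2 probe set was dim, between 40.8 and 45.5, and lower by at most 0.09. Of 6 other immediate early genes 4 were lower than the control at 48 h and 5 at 72 h; Egr1 differed by -0.89 and -0.93, and Fosb, counted as lower, was below the level filter. Jun was higher, by 1.01 and 0.58, and Fos differed by 0.26 and -0.45. Their part in the Btg2 and Plk2 values was not tested.

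Sesn2, which encodes a sestrin that limits oxidative damage and the growth kinase complex mTORC1, showed almost no difference. It read 67.3, 68.6, 61.7 and 67.3, with differences of 0.02, -0.08 and 0.00, and its other probe set 57.0, 59.0, 64.9 and 59.0. The control and 72 h values of the brightest were exactly equal. Sesn2 is also a target of the stress factor ATF4. On the same arrays 6 of 7 genes of the integrated stress response were lower than the control at 48 and 72 h, with summed intensities of 6008, 6418, 3221 and 3475, and Asns, an asparagine synthetase, differed by -1.57 and -2.45. The remaining gene, Atf3, was higher, by 0.98 and 2.27. The part of this stress response in the Sesn2 values was not tested.

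Zmat3 and Aen were both lower than the control at 24 h and differed in opposite directions at 72 h. Zmat3 encodes a zinc finger protein that binds RNA and affects splicing and stability. Its single probe set read 107 in the control, 91.9 after 24 h, 111 after 48 h and 196 after 72 h, so that the first 3 arrays lay together and the last stood apart, with differences of -0.16, 0.04 and 0.71. The step from 48 to 72 h was 0.68. Aen, an apoptosis-enhancing nuclease, was lower on every off array than on doxycycline. It read 296 on the control and 213, 195 and 213 at 24, 48 and 72 h, with differences of -0.42, -0.53 and -0.42, and the 24 and 72 h values were exactly equal. The next probe sets of Aen were lower too, from 92.2 to between 71.6 and 72.7 and from 41.1 to between 31.7 and 36.3, while the last, between 18.9 and 21.1, was below the level filter.

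The death receptor genes gave little signal. Tnfrsf10b, the mouse receptor for the death ligand TRAIL, read 27.2, 26.1, 27.2 and 27.2, close to the level filter, with differences of -0.03, 0.00 and 0.00. Its other probe set read 25.8, 21.3, 21.3 and 20.6. Eda2r, a receptor for ectodysplasin A2, read 19.1 on the control, 24 and 48 h arrays and 28.0 at 72 h, a difference of 0.23. Only its 72 h value was above 24.9, so its level on the other arrays is not distinguished from dim background here.

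The 72 h array, where Zmat3, Eda2r and the brightest of the 3 Ccng1 probe sets were highest, also held more signal from markers of other cells. Fibroblast markers summed to 15839.7, 16467, 34128 and 60823 on the control, 24, 48 and 72 h arrays, with 5 of 6 genes higher than the control at 72 h. Macrophage markers summed to 2913, 5529.9, 4895 and 10017, with 6 of 6 higher. Skeletal muscle markers summed to 239, 526, 221 and 4219.7, with 6 of 7 higher; the other, Myh1, was below the level filter and read 18.9 on the control and 16.2 at 72 h. Adipocyte markers summed to 295, 106, 405 and 1608, with 2 of 3 higher, and endothelial markers to 283, 267, 284 and 505, with 4 of 4 higher. Keratinocyte markers summed to 164, 162, 161 and 173, with 2 of 4 higher. Their part in the values of these genes was not tested.

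**Figure D2:**
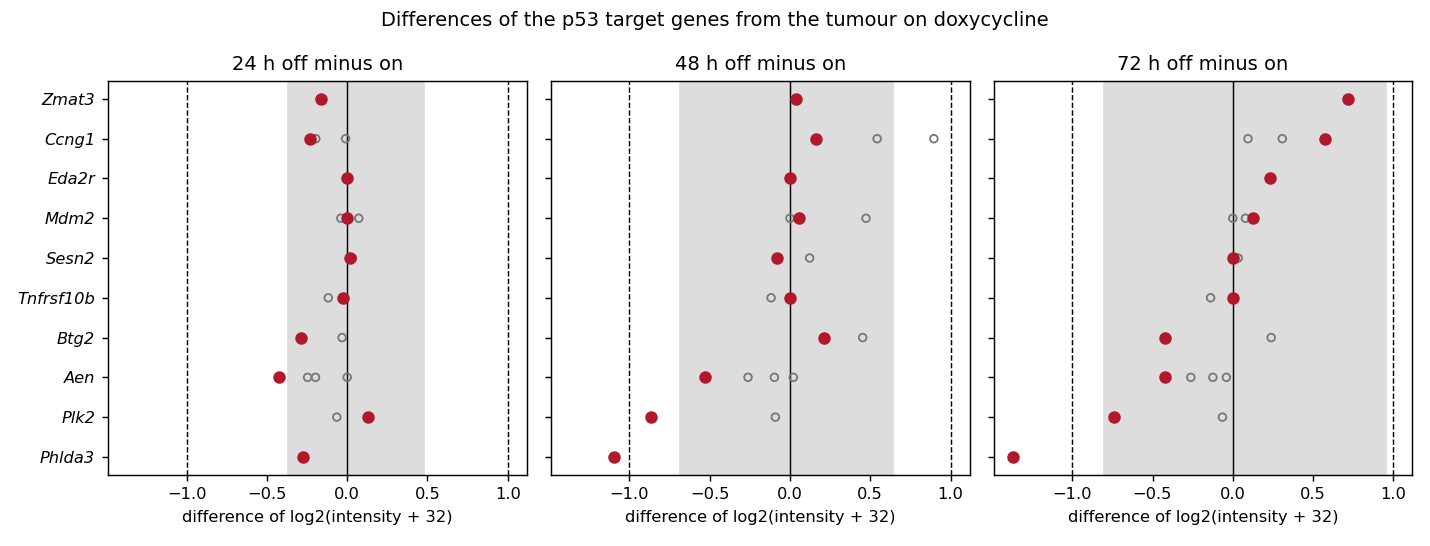
Difference of log2(intensity + 32) from the tumour on doxycycline at 24, 48 and 72 h off, for each of the 10 genes; red points are the brightest probe set, open points the others, the grey band holds the central 95% of genes above the level filter, and dashed lines mark 2-fold. Phlda3 lies below -1 at 48 and 72 h, and Zmat3 and Ccng1 lie at 0.71 and 0.58 at 72 h.

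Counted together, 0 of the 9 genes above the filter were 2-fold higher and 0 were 2-fold lower at 24 h, where 0.266% and 0.0666% of all 13522 genes were. At 48 h 0 were higher and 1 lower, against 0.754% and 1.04% of all genes. At 72 h 0 were higher and 1 lower, against 2.29% and 1.63%. With so few genes, counts of 0 and 1 are not set apart from these shares. By probe set, Phlda3's was 1 of the 17 above the filter that was 2-fold lower at 48 and at 72 h, where 0.823% and 1.42% of all such probe sets were. The 3 off arrays share the control, so these counts are not independent.

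The median difference of the 9 genes was -0.16 at 24 h, with 6 lower, 2 higher and 1 equal to the control, while the median of all genes was 0.00 and 43.0% of them were lower. At 48 and 72 h the median was 0.00, as for all genes, with 4 lower and 4 higher at 48 h and 4 lower and 3 higher at 72 h. Over all 10 genes it was -0.10, 0.00 and 0.00. Outside the range that holds the central 95% of all genes lay Aen at 24 h (range -0.37 to 0.48), Phlda3 and Plk2 at 48 h (-0.68 to 0.64) and Phlda3 at 72 h (-0.80 to 0.96), each on the low side. These are readings of the brightest probe sets. The other Aen probe sets above the filter were inside the range at 24 h, at -0.25 and -0.20. The other Plk2 probe set was inside it at 48 h, at -0.09.

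In the comparisons that leave the control out, Phlda3 was again the only one of the 9 genes called. From 24 to 48 h 0 were 2-fold higher and 0 lower, against 0.569% and 1.01% of all genes. From 48 to 72 h both counts were again 0, against 0.917% and 0.214%. From 24 to 72 h 0 were higher and 1 was lower, against 1.97% and 1.85%. The greatest steps up from 24 to 72 h were those of Zmat3, 0.88, and Ccng1, 0.81, and the greatest step down after Phlda3 was that of Plk2, -0.87. These 3 genes thus differ by less than 2-fold between any pair of arrays on this scale. On the linear scale, Zmat3 at 72 h was 2.13 times its 24 h level, and Plk2 at 24 h was 2.25 times its 48 h level. For Ccng1 the 72 h level was 1.82 times that at 24 h. That Phlda3 alone was called between off arrays therefore depends on the constant added before the log. The alternative settings were run only for differences from the control.

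**Figure D3:**
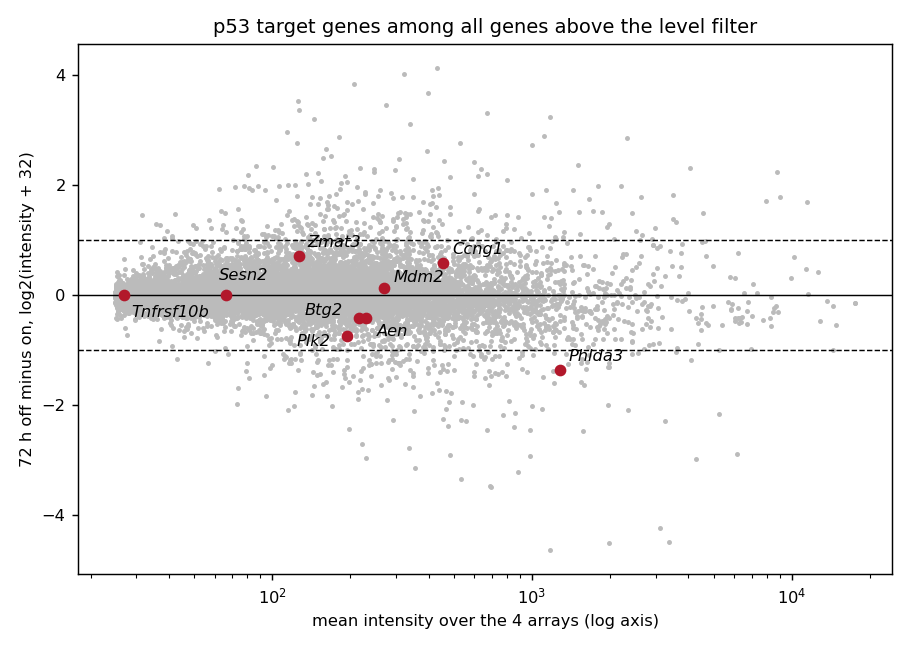
Difference at 72 h off (log2 of intensity + 32, off minus on) against mean intensity over the 4 arrays (log axis) for all 13522 genes above the level filter, in grey, with the 9 p53 target genes above the filter in red. Phlda3, at -1.37, is the only red point beyond the dashed 2-fold lines.

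Other genes of the p53 pathway, from a list of 50, were more often higher than lower at 48 and 72 h. Of the 50, 45 had a probe set with that symbol here. The other 5, Trp53 (the gene of p53 itself), Bax, Fdxr, Gls2 and Gdf15, were not analysed here. Of the 45, 39 were above the level filter. At 24 h 21 were higher and 16 lower than the control, with a median of 0.02. At 48 h 24 were higher and 12 lower, with a median of 0.08, and 2 were 2-fold higher, against the 0.754% of all genes. Of all genes, 45.3% lay above the control at 48 h. At 72 h 29 were higher and 8 lower, with a median of 0.09, and 3 were 2-fold higher, against 2.29% of all genes; 46.8% of all genes lay above the control at that time. At 24, 48 and 72 h 0 of the 39 were 2-fold lower, against 0.0666%, 1.04% and 1.63% of all genes, so the counts of lower genes are near the background. The 2 and 3 genes that were 2-fold higher made up a larger share of the 39 than of all genes, which was not tested.

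Among regulators of p53, Mdm4, the partner of MDM2 that blocks p53 activity, read 89.9, 114, 141 and 140.5 by its brightest probe set, with differences of 0.26, 0.51 and 0.50. Its other probe sets above the filter went the other way, at -0.16 and -0.10 at 72 h. Cdkn2a, which encodes ARF and p16, read 21.1, 21.1, 17.4 and 23.0, below the level filter on all 4 arrays. Of the 8 regulators above the filter, 6 were higher and 2 lower at 72 h, with a median of 0.08.

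Among cell cycle arrest targets, Cdkn1a and Ptprv went opposite ways. Cdkn1a, which encodes the CDK inhibitor p21, read 997 on doxycycline, 614 at 24 and 48 h, and 587 at 72 h, with differences of -0.67, -0.67 and -0.73. All the off arrays were lower than the control and close to each other, and its other probe set was lower too, at -0.22, -0.42 and -0.46. Ptprv, a receptor-type tyrosine phosphatase, read 239, 227, 418 and 654, with differences of -0.06, 0.73 and 1.34. Of the 6 genes of this group above the filter, 5 were higher and 1 lower at 48 and 72 h.

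Among death targets, Trp53inp1, a nuclear protein that promotes p53 activity and autophagy, read 46.0, 75.7, 147 and 282, with differences of 0.47, 1.20 and 2.01. Another of its probe sets read 36.2, 34.7, 64.0 and 37.8, so the value at 72 h rests on 1 probe set. Casp1, an inflammatory caspase, read 47.1 on the control and exactly 84.4 on each off array, a difference of 0.56. The macrophage markers given above were higher on those arrays as well, and their part in the Casp1 values was not tested. Of the 8 death targets above the filter, 5 were higher and 3 lower at 72 h, with a median of 0.06.

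Among metabolic and repair targets, Sesn1, a sestrin like Sesn2, read 111, 84.7, 141 and 296, with differences of -0.30, 0.27 and 1.20. Its other probe sets were at 1.03, 0.42 and 0.10 at 72 h, the last pair below the level filter. With probe sets ending in _s_at left out Sesn1 was not called, since only that pair remained. Sesn1 was thus highest at 72 h while Sesn2 read the same as the control; the difference between them was not tested. Ddit4, an inhibitor of mTORC1 that also responds to hypoxia and stress, read 236, 244, 572 and 499, with differences of 0.04, 1.17 and 0.99. Of the 17 genes of this group above the filter, 13 were higher and 2 lower at 72 h, with a median of 0.14.

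**Figure D4:**
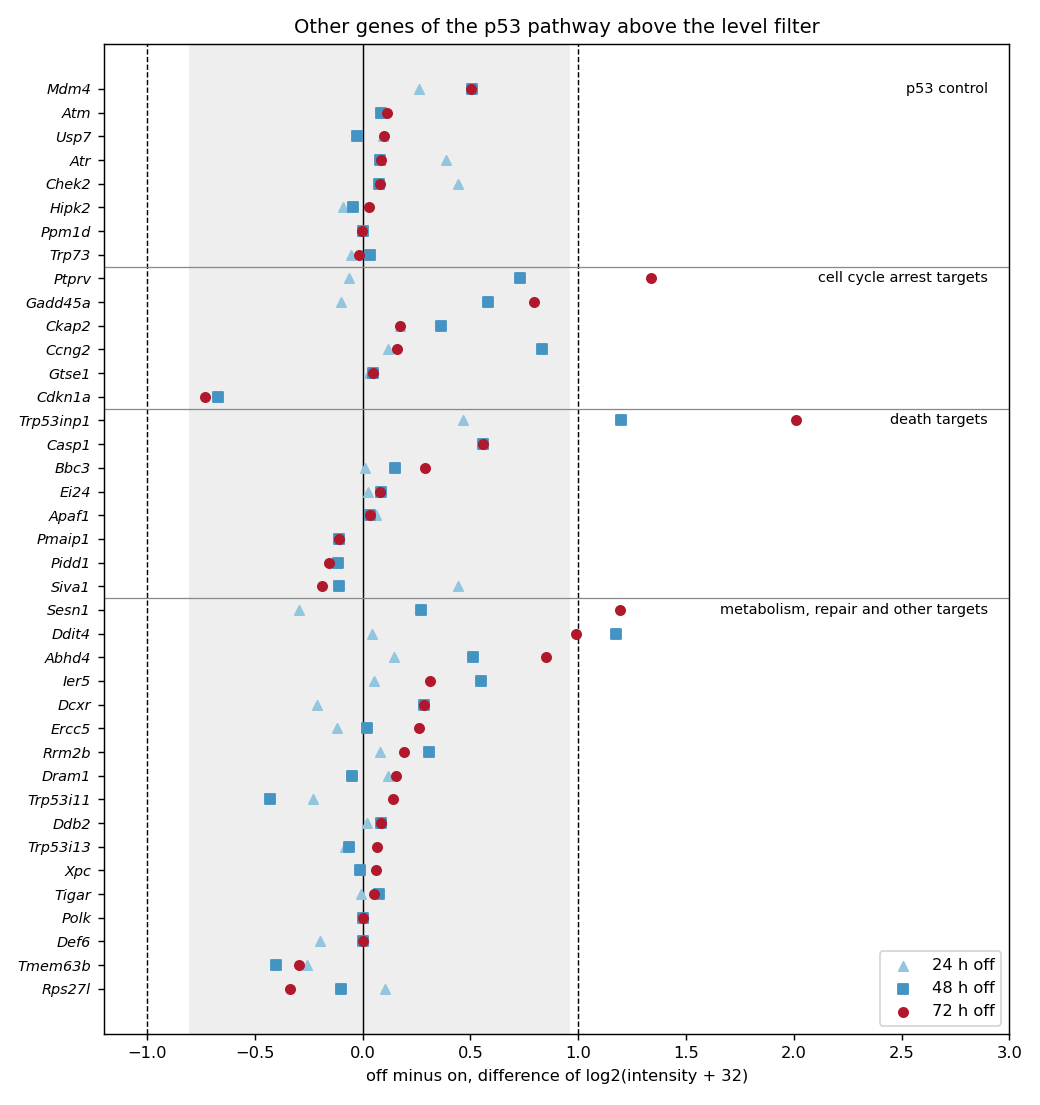
Differences of log2(intensity + 32) from the tumour on doxycycline for the 39 other p53 pathway genes above the level filter, grouped by role; triangles are 24 h, squares 48 h and circles 72 h off, the grey band holds the central 95% of all genes at 72 h, and dashed lines mark 2-fold. Trp53inp1, Ptprv and Sesn1 lie beyond 2-fold at 72 h, at 2.01, 1.34 and 1.20, and Cdkn1a is the lowest, at -0.73.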

How the data were processed

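RNA of 4 tumours was measured on Affymetrix mouse arrays from 10 ug of total RNA, 1 array per condition, grouped by the treatment in the labels. The values are linear intensities as deposited. MAS5 and RMA appear in the submitters' processing notes without a version or a role, so how the authors scaled these intensities is not stated in any source used here. Of 45037 probe sets, 34945 had 1 symbol in the platform annotation, 932 several and 9160 were not listed; only the first kind was used.

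Differences of log2(intensity + 32) were computed from the deposited intensities with no further normalization, with the probe set of highest mean per gene and genes at or above the 40th percentile of mean intensity. Calls used a difference of 1 and no test was run. Named genes were all 10 p53 targets, Mdm4, Cdkn2a and Cdkn1a, the 6 other pathway genes above the filter with the greatest mean size of difference, and the 3 genes nearest to the target with the greatest range, with Nras, Dusp6 and Ccnd1 as checks of the labels. Egr1, Jun, Fos, Fosb, Asns, Atf3, Sox10, Pmel, Mitf, S100b, Dct, Mc1r, Mlana, Tyr, Tyrp1 and Myh1 were chosen after their values were seen, and the members and lists were chosen with earlier results of these data known. Alternatives were pseudocounts of 8, of 4 times 32 and none, median centring, quantile normalization, a level filter at the 60th percentile or none, averaging a gene's probe sets, and leaving out those whose names end in _x_at or _s_at. Python 3.11.15, pandas 2.3.3, NumPy 2.4.6 and matplotlib 3.10.9 were used.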

Additional observations from a re-analysis of the deposited data

Results flagged for a closer look

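Ccng1 and Btg2 differed from the control in opposite directions at different times, by at least 0.2 each way, with 1 array per time, and the difference between the times was not tested. Ccng1 had a difference of -0.23 at 24 h and 0.58 at 72 h by its brightest probe set. At the same times its other probe sets were at -0.195 and 0.31, and at -0.01 and 0.09. Only the brightest therefore reached 0.2 each way. Btg2 had 0.21 at 48 h and -0.42 at 72 h, although its other probe set was at 0.24 at 72 h.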

How the results depend on the processing

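Phlda3 was 2-fold lower at 48 h (-1.13 to -1.02) and at 72 h (-1.41 to -1.27) under all 9 alternatives. With a single probe set, it could not be changed by the level filters, by averaging or by leaving out _x_at and _s_at probe sets. The number of p53 targets 2-fold lower at 48 h was 1, and 2 with no pseudocount, when Plk2 reached -1.03; averaging probe sets put Plk2 at -0.48. Over the 10 genes, 260 of 270 recomputed differences moved by less than the spread of all genes (0.5 times the width of its central 68%, which was 0.17, 0.21 and 0.25 at 24, 48 and 72 h). Of the 135 whose size was at least 0.2, 0 changed sign. Smaller ones did, among them Zmat3 at 48 h (-0.02 with quantile normalization). Part of this was fixed by construction. The level filters could not change a gene's difference, and a pseudocount could not change its sign. Leaving out _x_at and _s_at probe sets could change only Tnfrsf10b, and averaging only genes with several probe sets. With probe sets averaged, Btg2 was at -0.09 and Ccng1 at 0.33 at 72 h. Averaging also put Aen at -0.22 at 24 h and at 48 h. The 2 other pathway genes 2-fold higher at 48 h were 0 with a pseudocount of 4 times 32 and 1 with probe sets averaged; the 3 at 72 h were 2 with 4 times 32, when averaged or without _x_at and _s_at probe sets, and 4 with a pseudocount of 8 or none. Counts of all genes, which are the background, moved with the pseudocount and the averaging. At 24 h, 36 were higher and 9 lower, against 18 lower with a pseudocount of 8, 12 and 1 with 4 times 32, 68 and 29 with none, and 5 lower when averaged. At 48 h, 102 were higher and 141 lower, against 154 higher with 8, 39 and 58 with 4 times 32, 186 and 212 with none, and 54 and 81 when averaged. At 72 h, 309 were higher and 220 (1.63%) lower, against 168 and 118 with 4 times 32, 501 higher with none, and 193 and 139 when averaged. The pseudocount shrinks differences of dim probe sets by construction, and the cause of the change on averaging was not tested. With 1 array per condition no array could be left out of a group. No paired analysis was possible because each condition has a single array and the labels carry no replicate number.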
